A study of Mus musculus with 12 samples.

Results

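The 9 genes described here are the matrix metalloproteinases (MMPs) Mmp2, Mmp8, Mmp9, Mmp12, Mmp13, Mmp14 and Mmp19 and the tissue inhibitors of metalloproteinases Timp1 and Timp2, taken by symbol from the 35275 genes listed in each count table. They were measured by bulk RNA sequencing in 12 libraries of mouse bone marrow-derived macrophages (BMDMs), 4 from each of 3 groups: DMSO (the solvent control), olaparib (an inhibitor of PARP enzymes) and MNA (methyl-nicotinamide, a metabolite of nicotinamide). Cells of every group came from wildtype bone marrow and were grown for 6 days with IL-4, IL-10 and M-CSF, a mixture that drives macrophages toward an M2 phenotype, so that both compounds were present during differentiation and the controls carry the same cytokines. The comparisons ask how olaparib and MNA each changed gene expression during this induction and where the compounds differed. The study names 4 donor mice as the source, whereas the labels do not say which culture each library came from, so a p-value measures the spread between libraries. In bulk RNA, fewer cells of a type and less RNA per cell cannot be told apart.

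MMPs are zinc-dependent proteases that cut proteins of the extracellular matrix and of the cell surface. Most are secreted as inactive proenzymes and gain activity when the propeptide is removed, while TIMPs bind the active site and block it. Macrophages are a major source of these enzymes in inflamed tissue and in tumors, and MMP-12 is best known as the elastase of macrophages. RNA levels do not tell how much of an enzyme was secreted, activated or inhibited.

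Of the 10 MMP genes that lie together on chromosome 9, Mmp13, Mmp12 and Mmp8 were among the 9 genes, and these 3 spanned 296.0 kb of GRCm38 (Mmp13 at 7272514 to 7283331, Mmp12 at 7344381 to 7369499 and Mmp8 at 7558456 to 7568485, each on the plus strand). The other 7 of the cluster, Mmp1b, Mmp3, Mmp1a, Mmp10, Mmp27, Mmp20 and Mmp7, had at most 16 counts in any library. Mmp13 and Mmp12 are direct neighbours in this list, 61.05 kb apart. Upstream sequences are shown for these 3 and for Timp1, which was lower in every olaparib library and in MNA replicates 1, 3 and 4 than in every DMSO library. Each is the 250 bases before a RefSeq transcript start (GRCm38.p6, plus strand), with matches to TGANTCA, a form of the AP-1 motif, and to TATAAA, a form of the TATA box, in capitals.
Mmp8, chr9:7558179-7558428: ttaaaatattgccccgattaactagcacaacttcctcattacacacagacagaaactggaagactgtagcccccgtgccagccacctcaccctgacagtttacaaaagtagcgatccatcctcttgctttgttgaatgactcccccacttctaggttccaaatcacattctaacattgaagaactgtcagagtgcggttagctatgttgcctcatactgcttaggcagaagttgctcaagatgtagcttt
Mmp13, chr9:7272264-7272513: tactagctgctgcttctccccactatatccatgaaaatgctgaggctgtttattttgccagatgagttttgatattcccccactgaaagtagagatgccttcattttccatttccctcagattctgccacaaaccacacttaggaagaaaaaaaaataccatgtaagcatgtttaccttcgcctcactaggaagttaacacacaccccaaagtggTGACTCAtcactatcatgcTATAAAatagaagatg
Mmp12, second start, chr9:7347124-7347373: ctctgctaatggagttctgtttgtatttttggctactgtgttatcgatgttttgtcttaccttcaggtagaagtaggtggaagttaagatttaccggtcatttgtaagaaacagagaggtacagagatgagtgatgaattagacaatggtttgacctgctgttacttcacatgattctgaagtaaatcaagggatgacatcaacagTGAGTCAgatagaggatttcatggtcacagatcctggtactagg
Timp1, chrX:20869916-20870165: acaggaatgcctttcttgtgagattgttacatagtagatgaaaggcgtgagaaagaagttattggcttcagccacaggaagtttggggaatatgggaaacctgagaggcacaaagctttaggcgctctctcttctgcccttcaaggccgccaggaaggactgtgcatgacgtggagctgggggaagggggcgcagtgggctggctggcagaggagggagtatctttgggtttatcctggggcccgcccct

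Mmp13 held the AP-1 form TGACTCA at 35 to 29 bases before the start and TATAAA at 16 to 11 bases before it. The second Mmp12 window held TGAGTCA at 44 to 38 bases before the start. Neither motif was found in the printed Mmp8 and Timp1 windows, nor in those of Mmp14, Timp2 and the first Mmp12 start. Both strands were searched, and in windows of the same length 6.749% of 32851 RefSeq promoters held TGANTCA and 12.368% held TATAAA. A match is a description of the letters and not a mapped binding site. Of the 9 genes 6 had promoters in the table, and Mmp2, Mmp9 and Mmp19 are named without a sequence.

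Counts on genes numbered 21146291 to 31446849 per library with DMSO, 24947905 to 28766984 with olaparib and 24076240 to 27501216 with MNA. All 10 macrophage markers on the list had counts in every group, and their summed level was 4513 to 5780 CPM (counts per 1e6 counts of the scaled library) with DMSO, 8969 to 10753 with olaparib and 4147 to 7672 with MNA. Lyz2 alone had a mean of 1918 CPM with DMSO and 6009 with olaparib. The markers did not all rise with olaparib, and the means of Cd68 (1228 and 839) and Mrc1 (679 and 571) were lower. The library labelled MNA replicate 2 fell among those of DMSO on the first principal component of all tested genes (-36.0, against -43.7 to -33.6 with DMSO and 59.9 to 63.4 for MNA replicates 1, 3 and 4), so values without it are given beside most results of the 9 genes. In 7 of the 9 genes its level was nearer to the DMSO mean than to the mean of the other MNA libraries, the exceptions being Mmp9 and Mmp12. Without this library the common dispersion of the fit, a measure of spread between libraries, went from 0.0333 to 0.0123, and in each comparison the standard error was smaller for 8 of the 9 genes.

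Differences were tested with edgeR's quasi-likelihood test in 1 fit of the 12 libraries, and genes with an adjusted p (Benjamini-Hochberg, over 12849 tested genes) under 0.05 count as called. All 9 genes passed the filter on low counts. They had been selected on the levels and differences of earlier results of these data and are listed by name with no threshold, so the calls describe each gene and lend no independent support to a pattern of the family. With olaparib, Mmp8 and Mmp2 were called higher than with DMSO, as were 14.3% of all tested genes, and Timp1 was called lower, as were 12.8%. MNA raised Mmp19 and Mmp8 (2 of 9 genes, with 16.3% of all tested genes called higher) and lowered Timp2 (1 of 9, with 12.3% called lower). Between the compounds, Mmp2, Mmp8, Mmp14 and Timp2 were higher with olaparib (4 of 9, against 10.9% of all genes) and Mmp12 was lower (1 of 9, against 10.9%).

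Without MNA replicate 2 these counts became 4 higher and 3 lower with olaparib (22.5% and 21.2% of all tested genes), 4 higher and 4 lower with MNA (27.2% and 26.9%), and 5 higher and 2 lower for olaparib against MNA (21.5% and 20.7%). The calls for MNA against DMSO were fragile in another way. In a fit of the DMSO and MNA libraries alone, edgeR called 0 of the 9 genes and 0 of 12379 genes in all, with 5 of the 9 at an unadjusted p under 0.05, while DESeq2 on all 12 libraries called 6 of the 9. Both comparisons with DMSO use the same 4 control libraries, and olaparib against MNA is the direct test of a difference between the compounds.

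**Figure D1:**
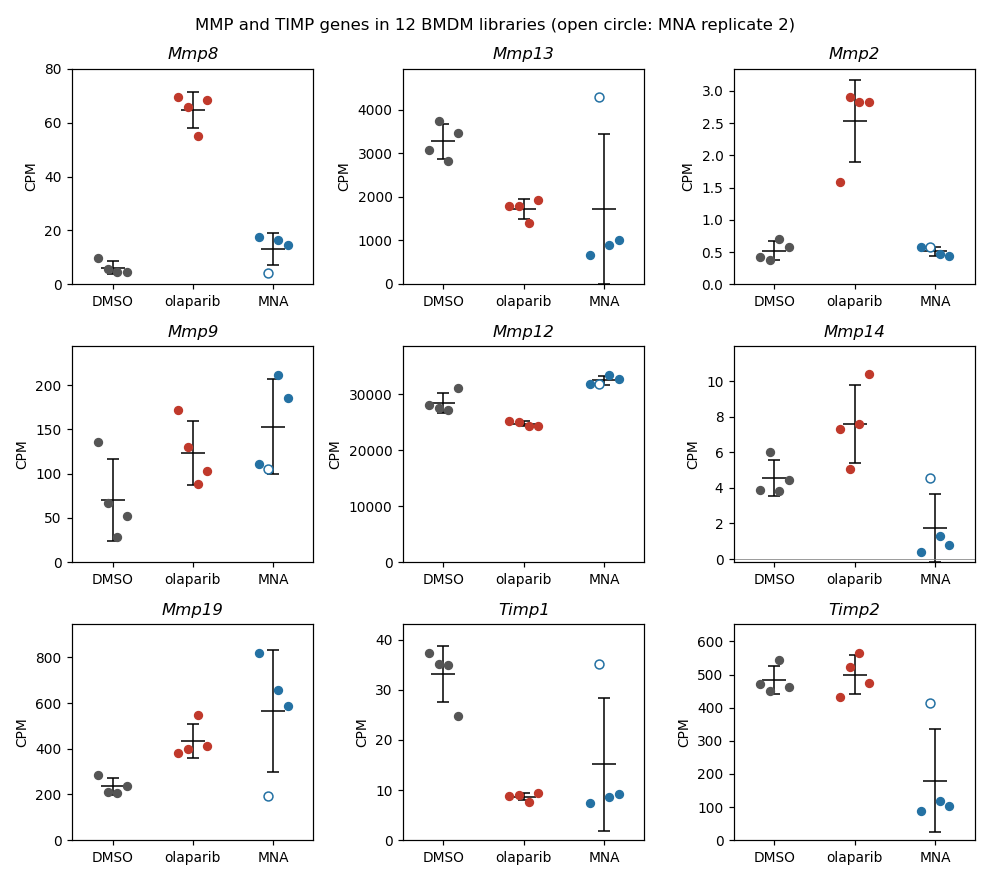
Level of each of the 9 genes in CPM (vertical axes, linear) in the 4 DMSO, 4 olaparib and 4 MNA libraries; each point is a library, the open circle is MNA replicate 2, and bars are the mean ± SD of 4 libraries. Mmp8 lies at 55.1 to 69.6 CPM in the olaparib libraries and at no more than 17.4 in any other, and the open circle lies apart from the other MNA libraries for Mmp13, Mmp14, Mmp19, Timp1 and Timp2.

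The collagenases cut fibrillar collagens, and MMP-8 is known as the collagenase that neutrophils store in granules. Mmp8 had 9.75, 5.57, 4.69 and 4.67 CPM in DMSO replicates 1 to 4, 69.6, 65.9, 55.1 and 68.3 with olaparib, and 17.4, 4.15, 16.4 and 14.5 with MNA. All 4 olaparib libraries lay above every DMSO and MNA library, and MNA replicate 2 was the lowest of the 12. Olaparib raised Mmp8 10.6-fold over DMSO, with a log2 fold change of 3.41 ± 0.38 (SE, adjusted p = 0.000156), the largest of the 9 genes. The level with olaparib was also 4.95-fold that with MNA (2.31 ± 0.36 on the log2 scale, adjusted p = 0.00106). Fitted without MNA replicate 2, the values were 3.42 ± 0.18 against DMSO (adjusted p = 3.21e-08) and 2.01 ± 0.19 against MNA (adjusted p = 1.91e-06).

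MNA raised Mmp8 2.14-fold over DMSO (log2 fold change 1.10 ± 0.37, adjusted p = 0.0422), and without MNA replicate 2 the value was 2.66-fold (1.41 ± 0.20, adjusted p = 3.76e-05). This call was lost when any of DMSO replicates 2, 3 and 4, any olaparib library or any of MNA replicates 1, 3 and 4 was left out, with adjusted p up to 0.115. Markers of neutrophils were examined beside it, since these cells also express Mmp8 and Mmp9. The summed level of 13 neutrophil markers was 8.06 to 21.0 CPM with DMSO, 11.0 to 13.0 with olaparib and 8.85 to 75.3 with MNA. In the olaparib libraries 3 of the 13 markers, Ly6g, Elane and Ctsg, had no count, 9 of 13 stayed at or under 3 counts in every library, and the range of the sum lay within that of DMSO. Most of that sum was Csf3r, at 6.92 to 9.59 CPM with olaparib and 6.48 to 13.8 with DMSO. S100a8 had 2.76, 3.38, 2.86 and 2.89 CPM with olaparib against 2.77, 1.27, 1.37 and 1.11 with DMSO, and Cxcr2 had 4 to 13 counts against 1 to 6. S100a8 was not called (adjusted p = 0.383), in a fit whose spread also takes in MNA replicate 4. That library had 328 counts of S100a8, against 27 to 40 in the other MNA libraries. In no group did Cxcr2 pass the filter by itself, and it is given with no test. In the MNA group all 13 markers had more than 3 counts in at least 1 library, and MNA replicate 4 held the 75.3, with 17.6 the next highest. Its Mmp8 level was 14.5 CPM, the lowest of MNA replicates 1, 3 and 4. Single markers were not alike in these libraries. Ngp had 42, 88 and 374 counts in MNA replicates 1, 3 and 4, and S100a9 had 27, 70 and 517. DMSO replicate 1 had 48 and 51, and DMSO replicates 2, 3 and 4 at most 4 and 2. Camp and Retnlg had 105 and 72 counts in MNA replicate 4 and at most 2 in the other MNA libraries. Csf3r had 4.87 to 6.72 CPM in MNA replicates 1, 3 and 4. The part of such cells in the Mmp8 values was not tested.

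Mmp13 encodes the main interstitial collagenase of rodents. It had 3081, 3738, 2835 and 3459 CPM in DMSO replicates 1 to 4, 1785, 1798, 1385 and 1919 with olaparib, and 670, 4307, 893 and 1003 with MNA. Every olaparib library lay below every DMSO library, and MNA replicates 1, 3 and 4 lay lower still, while MNA replicate 2 was the highest of all 12. With all libraries neither difference from DMSO was called, at -0.93 ± 0.47 on the log2 scale for olaparib (adjusted p = 0.157) and -0.93 ± 0.47 for MNA (adjusted p = 0.143). Without MNA replicate 2 both were called, with a level 1.91-fold lower in olaparib-treated cells (log2 fold change -0.93 ± 0.13, adjusted p = 6.82e-05) and 3.84-fold lower in MNA-treated cells (-1.94 ± 0.15, adjusted p = 1.30e-07). The difference between the compounds then had a log2 fold change of 1.01 ± 0.14 (adjusted p = 6.95e-05), against 0.00 ± 0.47 with all 12 libraries (adjusted p = 0.998).

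The gelatinases cleave denatured collagen and type IV collagen of basement membranes. Mmp2 was scarce: it had 0.422, 0.378, 0.704 and 0.571 CPM with DMSO, 1.59, 2.91, 2.82 and 2.82 with olaparib, and 0.576, 0.573, 0.463 and 0.442 with MNA. The 4 olaparib libraries (45 to 81 counts) lay above all others, where DMSO libraries held 9 to 21 counts, and olaparib replicate 1 was the lowest of its group. Olaparib raised Mmp2 4.81-fold over DMSO (log2 fold change 2.27 ± 0.27, adjusted p = 0.000255) and 4.89-fold over MNA (2.29 ± 0.27, adjusted p = 0.000189), and both calls held under every alternative that could be run. The MNA difference from DMSO was -0.02 ± 0.29 (adjusted p = 0.956), with a 95% interval of -0.59 to 0.55 taken as 1.96 standard errors on each side. The 3 values were, when MNA replicate 2 was left out, 2.26 ± 0.28, 2.35 ± 0.32 and -0.09 ± 0.35 (adjusted p = 2.69e-05, 5.11e-05 and 0.849).

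Mmp2 and Mmp14 are expressed strongly by fibroblasts, and markers of stromal cells were therefore summed. The 10 genes together reached 1.58 to 3.11 CPM with DMSO, 2.79 to 7.14 with olaparib and 2.65 to 4.67 with MNA. Olaparib replicate 1, the lowest of its group for Mmp2, also had the lowest stromal sum of its group (2.79 CPM), and the part of such cells in the Mmp2 values was not tested. Lum had no count in any DMSO or olaparib library, and Col1a1 and Col3a1 had at most 4 counts in each of them. Several other genes of the list had more counts with olaparib, as Mmp2 did, whereas Cxcl12 had 1 to 5 counts against 2 to 13 with DMSO. Postn had 1.41 to 2.51 CPM with olaparib and 0.550 to 1.17 with DMSO, without overlap, and was called (log2 fold change 1.29 ± 0.31, adjusted p = 0.0118). Pdgfrb had 9 to 31 counts against 2 to 9, Thy1 1 to 13 against 1 to 3, Dcn 6 to 16 against 3 to 7, and Pdgfra 17 to 67 against 6 to 38. In MNA replicates 1, 3 and 4 Mmp2 had 11 to 14 counts. The markers went both ways in these libraries. Pdgfrb had 31 to 47 counts and Thy1 11 to 27, above every DMSO library. Postn had 14 to 22, Pdgfra 6 to 12 and Dcn 0 to 2, none above the range of DMSO. In no group did Pdgfrb or Thy1 pass the filter by itself, and both had their lowest mean with DMSO. They are therefore given as levels with no test. Dcn entered the test only in the fit without MNA replicate 2, with its highest counts in the olaparib group. It is given as a level with no test, and no count of the list is set against the share of all genes.

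Mmp9, the gelatinase of activated myeloid cells, had the largest SD relative to its mean of the 9 genes in the DMSO group (70.8 ± 46.3 CPM, n = 4). It had 136, 66.7, 28.4 and 51.9 CPM in DMSO replicates 1 to 4, 172, 131, 88.8 and 103 with olaparib, and 111, 105, 212 and 185 with MNA. DMSO replicate 1 overlapped with both treated groups, and the other 3 DMSO libraries lay below all treated ones. The log2 fold changes were 0.81 ± 0.40 for olaparib (adjusted p = 0.152), 1.12 ± 0.41 for MNA (adjusted p = 0.0559) and -0.31 ± 0.40 for olaparib against MNA (adjusted p = 0.624). Mmp9 was higher with olaparib in all 4 pairs of DMSO and olaparib libraries of the same number. With the replicate number as a block the olaparib difference was 0.89 (adjusted p = 0.124), and with the block and without MNA replicate 2 it was 0.89 and called (adjusted p = 0.0357). Leaving out DMSO replicate 1 gave 1.33 for olaparib (adjusted p = 0.0203) and 1.64 for MNA (adjusted p = 0.0332). This library also had the highest neutrophil sum of the DMSO group (21.0 CPM, including 48 counts of Ngp and 51 of S100a9) and its highest Mmp8 level, and their part in the Mmp9 values was not tested. Leaving out MNA replicate 2 gave 1.26 ± 0.39 for MNA (adjusted p = 0.0141), 0.81 ± 0.37 for olaparib (adjusted p = 0.0891) and -0.45 ± 0.39 for olaparib against MNA (adjusted p = 0.372).

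**Figure D2:**
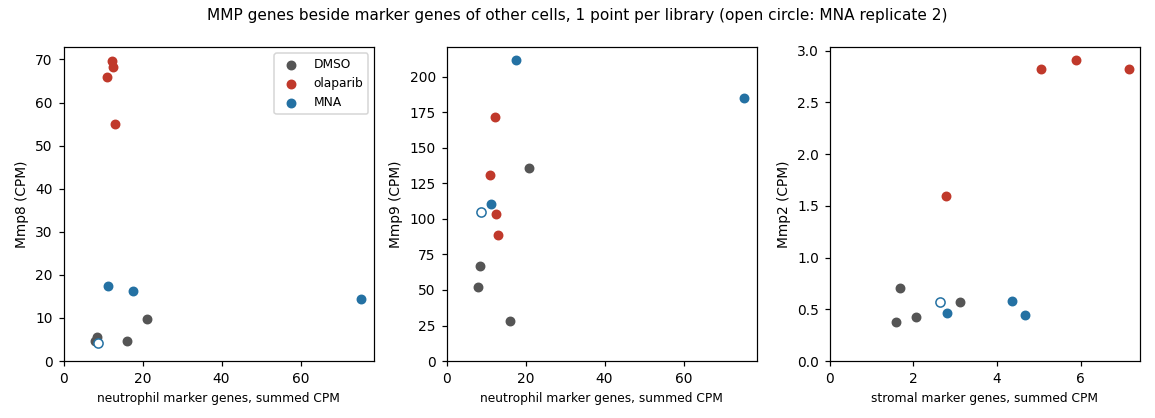
Levels of Mmp8, Mmp9 and Mmp2 (vertical axes, CPM) against the summed CPM of 13 neutrophil markers (left and middle) or 10 stromal markers (right); each point is a library and the open circle is MNA replicate 2. The olaparib libraries have the highest Mmp8 at neutrophil sums of 11.0 to 13.0 CPM, MNA replicate 4 stands apart at 75.3, and olaparib replicate 1 is lowest of its group on both axes of the Mmp2 panel.

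Mmp12, the macrophage elastase, ranked among the 3 most counted genes in every library. It had 28058, 27547, 27090 and 31025 CPM with DMSO, 25214, 24983, 24278 and 24350 with olaparib, and 31838, 31859, 33472 and 32650 with MNA. The groups did not overlap: every olaparib library lay below, and every MNA library above, all DMSO libraries, and here MNA replicate 2 lay with its own group. Mmp12 took 2.62 to 3.11% of all counts with DMSO, 2.31 to 2.56% with olaparib and 3.22 to 3.34% with MNA. The differences were small, and only that between the compounds was called with all libraries (1.31-fold lower with olaparib than with MNA, log2 fold change -0.39 ± 0.10, adjusted p = 0.0134).

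Against DMSO the Mmp12 values were -0.20 ± 0.10 for olaparib (adjusted p = 0.132) and 0.19 ± 0.10 for MNA (adjusted p = 0.140). Both were called without MNA replicate 2, at -0.20 ± 0.06 (adjusted p = 0.00932) and 0.20 ± 0.06 (adjusted p = 0.0130), and both by DESeq2 on all libraries (adjusted p = 0.000689 and 0.00222). Between the compounds the value was -0.40 ± 0.06 without MNA replicate 2 (adjusted p = 0.000123). Mmp12 shares 6.59% of its 31-base words with other genes, chiefly Mmp1b, which held 48 counts over the 12 libraries.

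Membrane-type MMP-14 sits on the cell surface, cuts collagen there and activates proMMP-2 together with TIMP-2. Mmp14 had 3.89, 5.99, 3.82 and 4.41 CPM with DMSO, 7.31, 5.03, 7.57 and 10.4 with olaparib, and 0.370, 4.55, 1.31 and 0.764 with MNA. MNA replicates 1, 3 and 4 lay below all other libraries, whereas the olaparib and DMSO groups overlapped. Mmp14 was 4.27-fold higher with olaparib than with MNA (log2 fold change 2.10 ± 0.55, adjusted p = 0.0182), and 9.18-fold without MNA replicate 2 (3.20 ± 0.35, adjusted p = 7.32e-06). This call was lost without olaparib replicate 4 (adjusted p = 0.0524), without MNA replicate 3 (0.0538) and with the libraries of the compounds fitted alone (0.0589).

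Against DMSO, Mmp14 was not called with all libraries (0.74 ± 0.52 for olaparib, adjusted p = 0.299; -1.35 ± 0.55 for MNA, adjusted p = 0.0766). Without MNA replicate 2 the values were 0.74 ± 0.25 for olaparib (adjusted p = 0.0301) and -2.46 ± 0.35 for MNA (adjusted p = 4.71e-05), a 5.50-fold lower level. Mmp14, alone of the 9 genes, would not have passed the count filter in the MNA group by itself.

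Mmp19 encodes a secreted MMP outside the collagenase and gelatinase groups. It had 286, 212, 207 and 235 CPM with DMSO, 380, 397, 547 and 413 with olaparib, and 821, 193, 655 and 587 with MNA. The olaparib libraries lay above all DMSO libraries and MNA replicates 1, 3 and 4 above all olaparib libraries, while MNA replicate 2 was the lowest of the 12. MNA raised Mmp19 2.40-fold (log2 fold change 1.26 ± 0.32, adjusted p = 0.0206), or 2.92-fold without MNA replicate 2 (1.55 ± 0.14, adjusted p = 9.47e-07). The call with all libraries was lost when DMSO replicate 2 or 3 was left out, and likewise MNA replicate 1, 3 or 4 (adjusted p up to 0.0637).

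For olaparib the Mmp19 difference was 0.88 ± 0.32 (1.85-fold, adjusted p = 0.0584). It was called with the replicate number as a block, which pairs libraries of the same number (0.89, adjusted p = 0.0481). It was also called without MNA replicate 1 (adjusted p = 0.0482), without MNA replicate 2 (adjusted p = 0.000163) and by DESeq2 (0.0174). The compounds differed only without MNA replicate 2, with Mmp19 1.58-fold lower under olaparib (-0.66 ± 0.14, adjusted p = 0.00208). Mmp19 shares 789 exon bases, 22.33% of its length, with Tmem198b on the opposite strand, and since the strand setting of the counting is not given in the sources used here, reads there are uncertain. Tmem198b itself held 5065 counts over the 12 libraries.

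TIMP-1 inhibits most secreted MMPs and binds proMMP-9. Timp1 had 37.4, 35.1, 35.0 and 24.9 CPM in DMSO replicates 1 to 4, 8.80, 8.92, 7.61 and 9.37 with olaparib, and 7.48, 35.1, 8.65 and 9.21 with MNA. All olaparib libraries and MNA replicates 1, 3 and 4 lay at 7.48 to 9.37 CPM, and all DMSO libraries and MNA replicate 2 at 24.9 to 37.4. Olaparib lowered Timp1 3.81-fold (log2 fold change -1.93 ± 0.42, adjusted p = 0.00710), a call that held under every alternative.

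For MNA the Timp1 difference was -1.13 ± 0.41 with all libraries (adjusted p = 0.0559) and -1.97 ± 0.14 without MNA replicate 2 (3.91-fold lower, adjusted p = 7.12e-08). Olaparib and MNA did not differ by the test, at -0.80 ± 0.42 with all libraries (adjusted p = 0.193). Without MNA replicate 2 the difference was 0.04 ± 0.14 (adjusted p = 0.840), with a 95% interval of -0.23 to 0.32. Timp1 lies at 20870166 to 20874735 of chromosome X, within Syn1 on the opposite strand, with 0 shared exon bases.

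TIMP-2 inhibits MMPs and also takes part in the activation of proMMP-2 at the cell surface. Timp2 had 473, 450, 544 and 464 CPM with DMSO, 431, 524, 566 and 473 with olaparib, and 86.6, 413, 117 and 102 with MNA. Olaparib and DMSO libraries overlapped throughout, while MNA replicates 1, 3 and 4 lay far below them and MNA replicate 2 just below. MNA lowered Timp2 2.68-fold (log2 fold change -1.42 ± 0.41, adjusted p = 0.0267), or 4.74-fold without MNA replicate 2 (-2.24 ± 0.12, adjusted p = 5.74e-09). The first of these calls did not survive leaving out DMSO replicate 2, 3 or 4, nor MNA replicate 1, 3 or 4 (adjusted p up to 0.0812).

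With olaparib the Timp2 difference from DMSO was 0.05 ± 0.40 (adjusted p = 0.940), and without MNA replicate 2 it was 0.05 ± 0.10 with a 95% interval of -0.15 to 0.24. The level with olaparib was 2.77-fold that with MNA (1.47 ± 0.41, adjusted p = 0.0229), or 4.89-fold without MNA replicate 2 (2.29 ± 0.12, adjusted p = 1.13e-08). With all libraries this call was lost without olaparib replicate 2 or 3 or MNA replicate 1, 3 or 4 (adjusted p up to 0.0669). Timp1 was thus lower in both treated groups once MNA replicate 2 was set apart, and Timp2 in the MNA group alone.

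**Figure D3:**
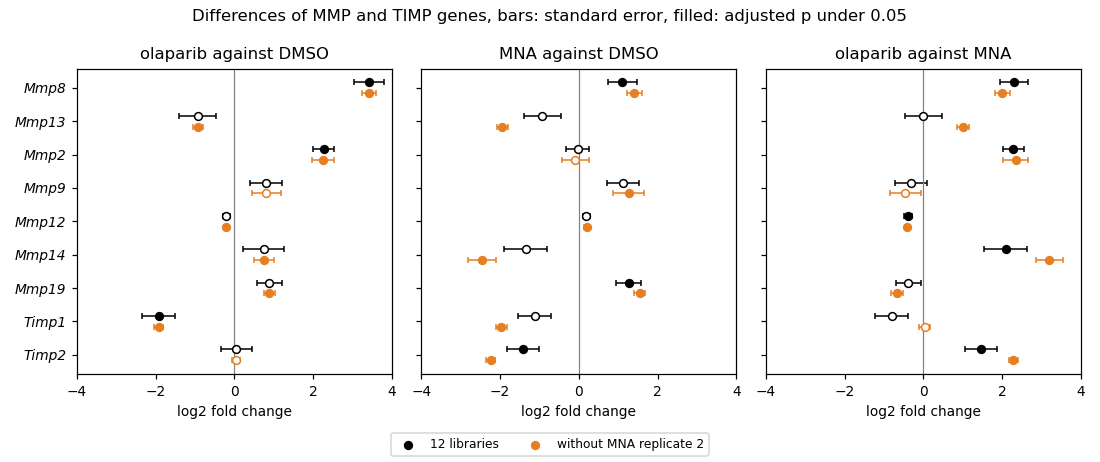
Log2 fold change of each gene (horizontal axis) in the comparisons of olaparib with DMSO, of MNA with DMSO and of olaparib with MNA, with all 12 libraries (black) and without MNA replicate 2 (orange); bars are standard errors and filled points have an adjusted p under 0.05. For Timp2 the olaparib values lie at 0.05 and the MNA values at -1.42 and -2.24, and for Mmp8 all 6 values lie above 1.

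Groups that did not overlap were counted as a further description. Between olaparib and DMSO 3 genes lay wholly higher (Mmp2, Mmp8 and Mmp19) and 3 wholly lower (Mmp12, Mmp13 and Timp1), as did 20.7% and 20.3% of all tested genes. Between MNA and DMSO only Mmp12 lay wholly higher and only Timp2 wholly lower (6.24% and 6.12% of all genes), and without MNA replicate 2 these became 3 (Mmp8, Mmp12 and Mmp19) and 4 (Mmp13, Mmp14, Timp1 and Timp2), against 27.2% and 26.9% of all genes. For olaparib against MNA 4 lay wholly higher and 1 wholly lower (11.5% and 9.69% of all genes), or 5 and 2 without MNA replicate 2 (23.5% and 22.8%).

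Levels of different genes were compared per kilobase of exon. With DMSO the order of the means was Mmp12 (3928 CPM per kb), Mmp13 (1226), Timp2 (124), Mmp19 (66.6), Timp1 (37.3), Mmp9 (20.0), Mmp8 (2.54), Mmp14 (0.760) and Mmp2 (0.154). Only Timp1 and Mmp9 overlapped among neighbours in this order. With olaparib Mmp8 stood in the sixth place (26.7 CPM per kb), where it overlapped with Mmp9 (34.9), and Timp1 took the seventh (9.77). Timp2 (128) and Mmp19 (123) then overlapped, as did Mmp14 (1.27) and Mmp2 (0.752).

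In MNA replicates 1, 3 and 4 the third place was held by Mmp19 (195 CPM per kb) and the fourth by Mmp9 (47.9), ahead of Timp2 (26.2) and Timp1 (9.51), with no overlap between these neighbours. Mmp2 (0.147) and Mmp14 (0.137) came last and overlapped. The exon length of Mmp12 covers several transcripts. With the median length of protein-coding transcripts in its place Mmp12 reached 21562 CPM per kb with DMSO, and the first 4 places kept their order with DMSO, with olaparib and in MNA replicates 1, 3 and 4.

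**Figure D4:**
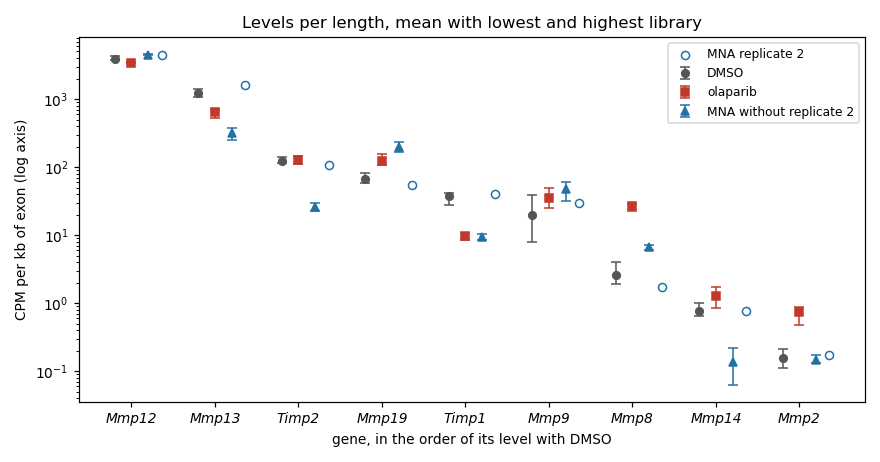
Mean level per kilobase of exon (vertical axis, log scale) for DMSO, olaparib and MNA replicates 1, 3 and 4, with bars from the lowest to the highest library; open circles are MNA replicate 2. With DMSO the genes span 3928 (Mmp12) to 0.154 (Mmp2) CPM per kb, and Mmp8 moves from 2.54 with DMSO to 26.7 with olaparib.

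The counts of the enzymes and the inhibitors were also summed in each library. The 7 MMP genes together held 2.92 to 3.48% of all counts with DMSO, 2.51 to 2.80% with olaparib and 3.38 to 3.70% with MNA, and Mmp12 alone made up at least 87.2% of these in every library. Without Mmp12 the other 6 MMP genes held 0.298 to 0.409% of counts with DMSO, 0.199 to 0.251% with olaparib and 0.164 to 0.182% in MNA replicates 1, 3 and 4, against 0.469% in MNA replicate 2. Most of these were Mmp13 counts in the DMSO libraries, where Mmp13 ranked 16 or 17 among all genes, against 42 to 69 with olaparib and 99 to 179 in MNA replicates 1, 3 and 4.

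Timp1 and Timp2 together held 0.0489 to 0.0561% of counts with DMSO and 0.0446 to 0.0547% with olaparib, ranges that overlapped. In MNA replicates 1, 3 and 4 they held 0.0095 to 0.0126%, and in MNA replicate 2 0.0455%. For each TIMP count there were 5.32 to 8.30 counts of MMPs other than Mmp12 with DMSO, 3.64 to 5.49 with olaparib and 14.2 to 17.2 in MNA replicates 1, 3 and 4, with 10.3 in MNA replicate 2. These sums are ratios of RNA counts, do not correct for gene length and were not tested.

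**Figure D5:**
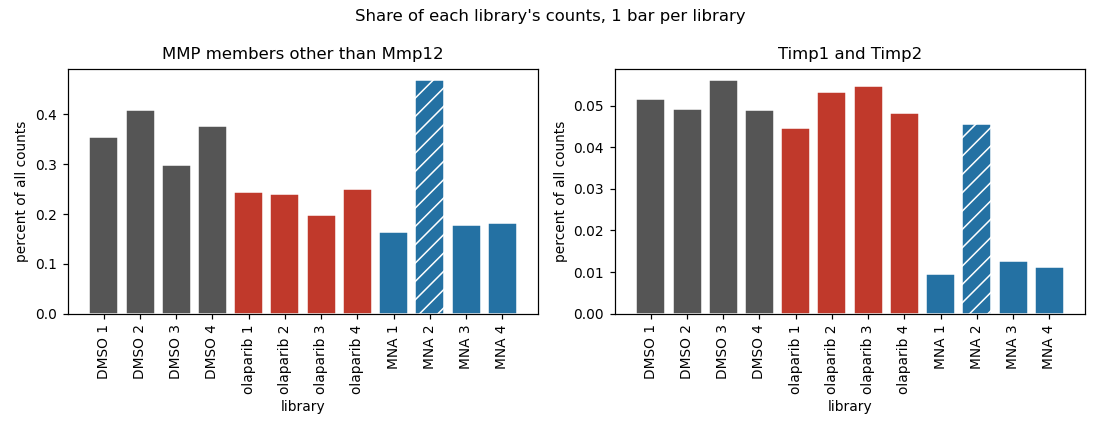
Percent of all counts (vertical axes, from 0) held by the 6 MMP genes other than Mmp12 (left) and by Timp1 and Timp2 (right) in each of the 12 libraries; the hatched bar is MNA replicate 2. TIMP shares are 0.0446 to 0.0561% in the DMSO and olaparib libraries and 0.0095 to 0.0126% in MNA replicates 1, 3 and 4.

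The other 19 genes of the family (16 MMPs, Timp3, Timp4 and the membrane-anchored inhibitor Reck) were nearly silent. Of these, 8 had at most 3 counts in every library, and 6 passed the filter: Mmp10, Mmp11, Mmp23, Mmp25, Mmp28 and Reck, none above 1.73 CPM in any library. The 8 were Mmp1a, Mmp3, Mmp7, Mmp16, Mmp20, Mmp21, Mmp24 and Timp4, while Mmp1b, Mmp15, Mmp17, Mmp27 and Timp3 had more counts, at most 29, but did not pass. Mmp23 had 1 to 6 counts with DMSO, 10 to 15 with olaparib and 4 to 14 with MNA, and Mmp25, a membrane-type MMP of leukocytes, had 5 to 6, 8 to 18 and 16 to 42. In CPM the means were 0.121, 0.447 and 0.364 for Mmp23 and 0.195, 0.438 and 1.01 for Mmp25. In no group did Mmp23 pass the filter by itself, and Mmp25 passed it through the MNA group, where it is high, so differences of these genes are given as levels with no test. Mmp17 passed the filter only without MNA replicate 2 and through the other MNA libraries (1.04 CPM, against 0.195 with DMSO and 0.194 with olaparib).

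Genes that act with the MMPs were taken from lists and are given as counts with the median log2 fold change, beside medians over all tested genes of 0.0038 for olaparib, 0.0002 for MNA and -0.0133 for olaparib against MNA. Their counts are read against the shares of all tested genes given above, which with all libraries were 14.3% higher and 12.8% lower for olaparib, 16.3% and 12.3% for MNA, and 10.9% each way for olaparib against MNA. Leaving out MNA replicate 2, the shares were 22.5% and 21.2%, 27.2% and 26.9%, and 21.5% and 20.7%. Where a gene entered the test through the group where it is high, the count of its list is not read against them. In the plasminogen system, which generates plasmin, an activator of several proMMPs, 9 of 11 genes were tested. Olaparib raised Plau, the urokinase (179 against 56.7 CPM, log2 fold change 1.66 ± 0.26, adjusted p = 0.00133), and the plasminogen receptor Plgrkt (0.38 ± 0.09, adjusted p = 0.0106). The inhibitor Serpinb2 passed the filter through the olaparib group alone (10 to 63 counts, against 8 to 11 with DMSO). It is given with no test, and the list's counts of genes higher with olaparib are not set against the share of all genes. The list's median was 0.51, and the calls of Plau and Plgrkt held when any 1 library was left out. MNA raised S100a10 (0.85 ± 0.19, adjusted p = 0.0154) and Plau (0.82 ± 0.26, adjusted p = 0.0356), 2 of 9 against 16.3% of all genes, with a median of 0.07. Both calls were lost without MNA replicate 3 or 4. Plau was higher with olaparib than with MNA (0.85 ± 0.26, adjusted p = 0.0340), and so were 4 other genes of the list, Serpinb2 among them. Of these 4 only the protease inhibitor Serpine2 (1.23 ± 0.25, adjusted p = 0.00552) kept its call whichever library was left out. When MNA replicate 2 was left out, the list had 5 higher and 0 lower with olaparib, 3 and 1 with MNA, and 4 and 1 for olaparib against MNA. Serpinb2 is among those higher with olaparib in both comparisons.

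Of 17 genes for activation, anchoring and clearance of MMPs, 11 were tested, and with olaparib 1 was called higher and 3 lower (median 0.08), against 14.3% and 12.8% of all genes. Thbs1, which encodes a matrix protein that binds MMPs, rose (1.34 ± 0.42, adjusted p = 0.0342), a call lost without any 1 of DMSO or olaparib replicates 2, 3 and 4 (adjusted p up to 0.0924). Furin, the convertase that activates proMMP-14, fell by 0.45 ± 0.12 (adjusted p = 0.0201; not called on leaving out any of 3 libraries), and the surface proteins Sdc4 and Itgb3 fell by 1.10 ± 0.20 (adjusted p = 0.00316) and 0.75 ± 0.16 (adjusted p = 0.00678). With MNA 4 were higher and 3 lower (median 0.04), against 16.3% and 12.3%: Cd44, a surface anchor of MMP-9, rose (0.48 ± 0.13, adjusted p = 0.0247), as did Thbs1 (1.37 ± 0.42, adjusted p = 0.0325), and Furin fell by 0.60 ± 0.12 (adjusted p = 0.0142). Of these 7 calls that of Furin held when any 1 library was left out. Between the compounds 1 gene was called with all libraries, Sdc4, lower with olaparib (-1.75 ± 0.21, adjusted p = 0.000183). With MNA replicate 2 left out, 12 were tested, and the counts were 2 higher and 4 lower with olaparib, 5 and 3 with MNA, and 3 and 4 between the compounds.

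Among 19 matrix genes, substrates of the MMPs, 10 were tested. Olaparib raised 4 and lowered 1 (median 0.64), against 14.3% and 12.8% of all genes, with Ecm1 at 1.09 ± 0.15 (adjusted p = 0.000719), Col5a1 at 2.51 ± 0.45 (adjusted p = 0.00263) and Spp1, osteopontin, at 0.73 ± 0.24 (adjusted p = 0.0422; lost on leaving out 6 of the 12 libraries in turn). MNA raised 2, against 16.3% of all genes, and lowered 5, Lama4 among them (median -0.73). None of these 7 calls held for every library left out. Fibronectin (Fn1) fell by 1.29 ± 0.36 (adjusted p = 0.0249) and Ecm1 by 0.65 ± 0.15 (adjusted p = 0.0172), while versican (Vcan) rose by 1.12 ± 0.31 (adjusted p = 0.0256). Some genes moved alike: Col5a1 had 0.805, 4.68 and 2.17 CPM and Lamc1, a laminin chain, 65.5, 44.3 and 48.2 in DMSO, olaparib and MNA, and both were called in the same direction with either compound. Tested directly, 6 of the 10 were higher with olaparib than with MNA, Lama4 among them, and 1 was lower, against 10.9% (median 1.39). Ecm1 was at 1.75 ± 0.16 (adjusted p = 3.15e-05) and Col4a2 at 2.02 ± 0.37 (adjusted p = 0.00299). Lama4 had 43 to 65 counts with DMSO, 95 to 203 with olaparib and 4 to 42 with MNA. It passed the filter through the DMSO and olaparib groups, where it is high, so its differences from MNA are given with no test. The list's counts of genes lower with MNA than with DMSO, and higher with olaparib than with MNA, are not set against the share of all genes. The counts without MNA replicate 2 were 7 higher and 1 lower with olaparib, 3 and 7 with MNA, and 7 and 1 between the compounds. Lama4 is among those lower with MNA and among those higher with olaparib than with MNA.

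ADAM and ADAMTS proteases, relatives of the MMPs, numbered 21, of which 11 were tested. Adam33 had 27 to 42 counts with olaparib, 1 to 5 with DMSO and 0 to 7 with MNA (mean 1.25, 0.111 and 0.0906 CPM). It passed the filter through the olaparib group alone, and its differences are given with no test. Olaparib raised Adam15 (0.34 ± 0.10, adjusted p = 0.0234) and Adam10 (0.17 ± 0.06, adjusted p = 0.0403), each lost on leaving out any of several libraries (6 and 9 of the 12). Adam33 entered the test through the group where it is high, so the list's count is not set against the share of all genes. The median over the 11 tested genes was 0.16. MNA lowered Adamts1 (-1.90 ± 0.48, adjusted p = 0.01999) and Adam9 (-0.23 ± 0.08, adjusted p = 0.0435), 2 of 11 against 12.3%, with a median of -0.0032, and these calls were lost on leaving out 4 and 11 of the 12 libraries. Adam15 was higher with olaparib than with MNA (0.43 ± 0.10, adjusted p = 0.00897). When MNA replicate 2 was left out, the list had 3 higher and 2 lower with olaparib, 1 and 2 with MNA, and 3 and 1 between the compounds. Adam33 is among those higher with olaparib in both comparisons.

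Transcription factors of the AP-1, ETS and related families are known regulators of MMP genes, and 18 of the 19 on the list were tested. With olaparib 6 were called, each lower (median -0.22), against 12.8% of all genes, among them Ets1 (-0.66 ± 0.14, adjusted p = 0.00680), Atf3 (-0.37 ± 0.09, adjusted p = 0.0120) and Jun (-0.78 ± 0.19, adjusted p = 0.0125), the 3 whose calls held when any 1 library was left out. With MNA 8 were lower and 1 higher (median -0.27), against 12.3% and 16.3%, with Maf at -0.86 ± 0.20 (adjusted p = 0.0170), Cebpb at -0.72 ± 0.18 (adjusted p = 0.0197) and Jun at -0.74 ± 0.19 (adjusted p = 0.0218), and 0 of the 9 calls held for every library left out. Between the compounds 2 were higher and 2 lower with olaparib, against 10.9% each way, with Maf at 1.27 ± 0.20 (adjusted p = 0.00126), Junb at -0.43 ± 0.10 (adjusted p = 0.0127) and Nfkb1 at -0.24 ± 0.07 (adjusted p = 0.0268). Fitted without MNA replicate 2, the list had 2 higher and 10 lower with olaparib, 2 and 9 with MNA, and 5 and 4 between the compounds.

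Osteoclasts, which arise from the same precursors, also express MMP-9 and MMP-14, so their genes were listed as well. The 10 osteoclast markers summed to 3649 to 4133 CPM with DMSO, 3349 to 3842 with olaparib and 3553 to 3807 with MNA, ranges that overlapped. Within this sum the genes went both ways. With olaparib 4 of 8 tested were called higher and 2 lower, against 14.3% and 12.8% of all genes. With MNA 4 were higher and 3 lower, against 16.3% and 12.3%. When any 1 library was left out, 2 of the 4 and 1 of the 2 calls with olaparib held. Of the calls with MNA 1 of the 4 and 0 of the 3 did. Dcstamp, needed for cell fusion, had 480 to 545 CPM with olaparib, 650 to 678 in MNA replicates 1, 3 and 4 and 130 to 282 with DMSO. Ocstamp had 390 to 418, 646 to 679 and 115 to 244 in the same order. The protease gene Ctsk had 148 to 233 CPM with olaparib, 9.58 to 17.3 in MNA replicates 1, 3 and 4, 187 in MNA replicate 2 and 267 to 381 with DMSO. Itgb3 had 548 to 594 CPM with olaparib, 531 to 605 in MNA replicates 1, 3 and 4 and 768 to 1031 with DMSO. The part of such cells in the MMP values was not tested. The 8 dendritic cell markers summed to 18.0 to 21.2, 18.6 to 23.6 and 18.3 to 27.1 CPM in the same order.

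For each of the 9 genes the most similar patterns over the 12 libraries were found by the root mean square (RMS) difference of log2 CPM centred on each gene's mean. Nearest to Mmp8 was Penk (0.32, where the RMS of Mmp8 itself is 1.55), followed by Mx1 (0.42). Nearest to Timp1 were Hilpda (0.27) and Syde1 (0.29), and to Timp2 Ptges (0.19) and Parvg (0.21). Mmp19 had Themis2 (0.14) and P2ry6 (0.15), Mmp13 Angptl6 (0.23) and Hspa9 (0.24), and Mmp14 Sirpb1c (0.42) and Rhoj (0.43). Mmp2 had Rab11fip4 (0.30) and Acpp (0.32), Mmp9 Prox2 (0.38) and Zfp69 (0.43), and Mmp12 Zdhhc3 and Oxsr1 (0.06 each). The points are libraries that fall into the treated groups, so that any gene with the same order of groups lies near, and no test was made.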

How the data were processed

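BMDM RNA was sequenced in 12 libraries (4 per group), labelled with their treatment and a number from 1 to 4. For each library the authors deposited a table of raw counts by Ensembl gene ID, not normalized. They had aligned single-end reads of stranded mRNA libraries with STAR 2.5.2b to GRCm38.p5 and, per the submitters' processing notes, used R 3.6.0 and DESeq2 for their own tests. The strand setting of the counting is not given in the sources used here. Names, positions and exon lengths came from GENCODE M21 (GRCm38), which held 34490 of the 35275 listed IDs, and promoters from RefSeq.

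Genes were kept by filterByExpr (minimum count 10, minimum total 15), which left 12849, and tested with edgeR 4.0.16 in R 4.3.3 (quasi-likelihood F test, TMM, all 12 libraries in 1 fit without a block). Levels are CPM of the TMM-scaled library, and log2 values used a prior count of 2. The standard error was taken from the F value. The total of 21146291 to 31446849 counts sets the precision, and intervals of levels were not computed for single libraries. The alternatives were DESeq2 1.42.0, 3 other scalings, no filter, a filter at a mean of 50 counts, a replicate block, 2 groups fitted alone, a 2-fold change, and each library left out. On simulated counts for 12705 genes in the olaparib against DMSO comparison, 199 of 200 changed genes were recovered with 10 false calls. The simulation used a single dispersion for all genes, lower than the 0.0333 of the data. It had no outlying library, and scarce genes were not changed, so its recovery does not carry over to these data.

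The members and lists were chosen with earlier results of these data known. The genes named are the 9 members, the other MMP and TIMP genes with Reck, the called genes of 5 further lists with at most the 3 smallest p per contrast, the 2 nearest patterns for each member, and markers where their values stand beside a result. Genes of the further lists named beyond these (Spp1, Thbs1 with olaparib, Lamc1 and Col5a1 with MNA, among others) were chosen after their values were seen. No 2 libraries of a group agreed within sampling noise. Olaparib and DMSO libraries of the same number deviated together from their group means (Pearson r over genes 0.227, 0.172, 0.225 and 0.408). The study names 4 donor mice, so the numbers may pair these groups. Libraries of unlike number were not compared in this way, and the labels state no pairing. For MNA against either group at least 1 pair was under 0.1.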

Additional observations from a re-analysis of the deposited data

Results flagged for a closer look

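Of 27 sets of 4 libraries (9 genes in 3 groups), 4 held a library whose distance from the nearest other was larger than expected for its group by Dixon's criterion at the 95% level, a criterion that chance meets in about 1 of 20 sets. MNA replicate 2 was the library in 3 of these: it had 4307 CPM of Mmp13 (the next highest MNA library had 1003), 35.1 CPM of Timp1 (next 9.21) and 413 CPM of Timp2 (next 117). The fourth was Mmp2 in olaparib replicate 1, at 1.59 CPM where the next library of the group had 2.82.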

How the results depend on the processing

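The olaparib against DMSO calls of Mmp8, Mmp2 and Timp1 and the olaparib against MNA calls of Mmp8 and Mmp2 held under every alternative that could give them (a mean of at least 50 counts removes Mmp2, and DESeq2 gave no adjusted p for Mmp13). With 2 genes higher for olaparib against DMSO, the count became 1 at a mean of at least 50 counts, 4 with 2 groups alone and 5 with the replicate block and without MNA replicate 2. The 1 lower became 2 with 2 groups alone and by DESeq2, and 3 with the block and without MNA replicate 2. For MNA against DMSO, 2 higher and 1 lower became 0 and 0 with 2 groups alone (edgeR, 5 of 9 at an unadjusted p under 0.05; DESeq2 called 6), 4 and 4 with the block and without MNA replicate 2, and the lower count became 3 with the replicate block alone and 3 by DESeq2. For olaparib against MNA, 4 higher became 2 with 2 groups alone, and 1 lower became 2 with the block and without MNA replicate 2 and 0 when a 2-fold change was also required. Leaving out 1 library at a time gave 2 to 4 higher and 1 to 3 lower for olaparib against DMSO, 0 to 4 and 0 to 4 for MNA against DMSO, and 2 to 5 and 1 to 2 for olaparib against MNA; the highest of each came without MNA replicate 2. Counts in the further lists moved as well over the alternatives. The AP-1 and ETS genes called lower ranged from 0 to 11 for olaparib (6 with all libraries) and from 0 to 10 for MNA (8). Matrix genes called higher with olaparib ranged from 2 to 8 (4), and those lower with MNA, Lama4 among them with all libraries, from 0 to 7 (5). Plasminogen genes called higher with olaparib, Serpinb2 among them with all libraries, ranged from 2 to 6 (3). The cause was not tested.

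Differences near 0 changed sign. Timp2 for olaparib against DMSO was -0.0222 to 0.110 on leaving out 1 library, the lowest without olaparib replicate 3. Mmp2 for MNA against DMSO was 0.0071 with the replicate block and -0.15 to 0.16 on leaving out 1 library. Mmp13 for olaparib against MNA was -0.0248 with library totals only, -0.0035 without a filter, -0.001 with 2 groups alone and -0.27 to 1.01 on leaving out 1 library. Timp1 for olaparib against MNA was -1.03 to 0.0402 on leaving out 1 library, the highest without MNA replicate 2, and 0.0163 with the block as well. The replicate block changed the olaparib call of Mmp19 and, for MNA against DMSO, those of Mmp9 (adjusted p = 0.0414), Mmp13 (adjusted p = 0.0378) and Timp1 (adjusted p = 0.0250). In neither comparison do the labels say that libraries of the same number share a culture.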
